A study of Mus musculus with 16 samples.

Results

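The laminins and the other basement membrane genes of the muscle fibre were followed in fibres from young and old mice that ran or did not run. The group was chosen by gene name, with earlier results of these data known. It holds Lama2, Lama4, Lamb1, Lamb2 and Lamc1 (laminin chains), Nid1 and Nid2 (nidogens), Hspg2 (perlecan), and the receptors Dag1 (dystroglycan) and Itga7 (integrin alpha 7). All 10 were found among the 23220 gene symbols with at least 1 read. RNA came from isolated muscle fibres (myofibers) taken from a fast hindlimb muscle, the extensor digitorum longus, once the mononucleated cells attached to their surface had been stripped off. There were 4 groups of 4 libraries, all from male C57BL/6 mice: young mice of 4 months and old mice of 22 months, each as controls or after 5 weeks of voluntary running on a wheel (runners). Whether each library stands for its own animal is not stated, so p-values measure the spread between these libraries, which may be technical.

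As background, the basement membrane is the thin sheet of matrix that covers each muscle fibre. Its laminin is a trimer of an alpha, a beta and a gamma chain: adult fibres carry mainly alpha 2 with beta 1 or beta 2 and gamma 1, and the beta 2 chain is known for its enrichment at the neuromuscular junction, while alpha 4 is found at that junction and in vessel walls. Nidogens and perlecan join the laminin network to the collagen IV network. At the fibre surface, laminin is bound by dystroglycan, which is anchored to dystrophin, and by integrin alpha 7 paired with beta 1. Loss of Lama2 causes a congenital muscular dystrophy.

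Each library held between 30.7 and 67.4 M reads assigned to a gene (M, 1e6), with a median of 46.9 M. Libraries are named by the columns of the deposited tables: O1ex to O4ex (old runners), Oc1 to Oc4 (old controls), Y1ex to Y4ex (young runners) and Yc4, Yc5, Yc7 and Yc8 (young controls). The 8 fibre markers (Acta1, Ckm, Myh4, Myh1, Tnnt3, Atp2a1, Ttn and Neb) had reads in every group and summed to between 112600 and 172030 reads per 1e6 reads of the library (CPM). For 6 members (Lama2, Lamb2, Lamc1, Hspg2, Dag1 and Itga7), which were well enough covered in every table, 2 control libraries lay furthest below the members' means over all libraries. Young control Yc4 was the lowest of its group for 6 of 6, and old control Oc2 for 5 of 6. Runner Y3ex was also the lowest of its group for 5 of 6 and O1ex for 4 of 6, at smaller distances from those means, and Oc1 was the highest of its group for 6 of 6. The differences of these 6 members between runners and controls are given with and without Oc2 and Yc4.

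The regions at the start of 3 of these genes are shown because Lamb1 and Lamb2, the alternative beta chains, were further apart in level than the alpha chains, and Dag1 was the most abundant member. The RefSeq promoter table (GRCm38.p6, 250 bases before to 50 after a gene's start) held 6 of the 10 members. Capitals mark a GC box (GGGCGG on either strand) or an E-box (CANNTG, which reads the same way on both strands in its fixed letters), and neither overlapped the other.
Lamb1, chr12:31265043-31265342, plus strand: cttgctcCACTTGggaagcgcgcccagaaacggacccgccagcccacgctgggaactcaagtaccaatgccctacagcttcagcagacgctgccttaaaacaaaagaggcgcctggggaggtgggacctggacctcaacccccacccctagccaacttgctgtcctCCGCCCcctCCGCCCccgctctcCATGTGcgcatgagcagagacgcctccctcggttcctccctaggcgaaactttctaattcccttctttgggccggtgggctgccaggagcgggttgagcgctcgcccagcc
Lamb2, chr9:108479612-108479911, plus strand: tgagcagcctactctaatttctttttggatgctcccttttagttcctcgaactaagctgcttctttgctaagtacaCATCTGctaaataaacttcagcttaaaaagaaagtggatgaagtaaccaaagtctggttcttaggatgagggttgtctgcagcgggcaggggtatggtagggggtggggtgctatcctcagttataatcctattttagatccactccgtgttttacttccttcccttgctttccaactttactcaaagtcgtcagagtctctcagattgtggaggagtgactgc
Dag1, chr9:108263909-108264208, minus strand: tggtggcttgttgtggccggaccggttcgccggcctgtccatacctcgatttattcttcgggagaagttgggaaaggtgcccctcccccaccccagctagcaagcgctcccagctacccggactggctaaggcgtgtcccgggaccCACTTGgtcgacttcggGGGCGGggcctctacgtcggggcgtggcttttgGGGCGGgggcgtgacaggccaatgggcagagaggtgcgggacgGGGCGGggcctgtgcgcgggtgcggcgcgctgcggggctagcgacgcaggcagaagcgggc
The Lamb1 sequence had 63.7% G and C, with 2 GC boxes and 2 E-boxes. The Lamb2 sequence had 44% G and C, no GC box and 1 E-box. The table held 2 overlapping entries for Dag1. The first, shown here by its place in the table, had 69.7% G and C, with 3 GC boxes and 1 E-box, and the second had 75.3% G and C, with 4 GC boxes and 1 E-box. Of all 32851 promoters in the table, 35.7% held a GC box and 72.3% an E-box. A TATA box (TATAAA, either strand) was in 13.6% of all promoters and an AP-1 motif (TGANTCA, either strand) in 7.81%, and neither string was in these 3 sequences. The matches are descriptions of letters, not of bound factors.

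Per exon length, Dag1 was the most abundant member and Lamb1 the least. The scale is reads per kilobase of exon and 1e6 reads (RPKM), a density that allows genes of different length to be compared. The medians of the 16 libraries were 44.4 for Dag1, 24.6 for Lamb2, 17.7 for Itga7 and 2.96 for Lamc1. The other 6 were below 1: Lama2 at 0.403, Hspg2 at 0.335, Nid2 at 0.228, Nid1 at 0.184, Lama4 at 0.0806 and Lamb1 at 0.0493. Dag1 ranged from 17.3 to 72.2, Lamb2 from 7.26 to 36.2 and Itga7 from 9.69 to 24.2, so these neighbours overlapped between libraries. Lamc1 ranged from 0.298 to 7.23, below every value of those 3, and overlapped with Lama2, which ranged from 0.0638 to 0.971. The 6 genes from Lama2 down overlapped with each other. By mean density over all libraries Dag1 stood at percentile 95.9 of all symbols with a known length, Lamc1 at 74.7 and Lamb1 at 40.3. Reads were not stranded, and exons of Gm48084 (with Lama2), Gm48682 (with Nid1), Rtraf (with Nid2) and Mettl7b (with Itga7) overlap the exons of those members in GENCODE M21, so reads of such partners cannot be told apart there.

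**Figure D1:**
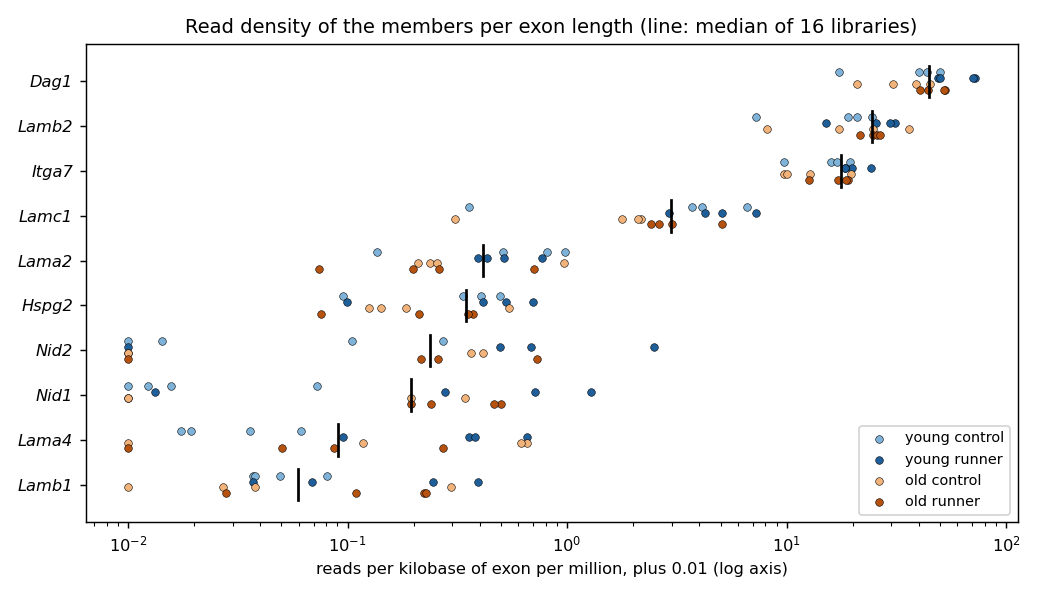
Read density (RPKM plus 0.01, log axis) of the 10 members in each of the 16 libraries, coloured by group, with a line at the median. Dag1, Lamb2 and Itga7 lie highest, with medians of 44.4, 24.6 and 17.7, and Lamb1 lowest, at 0.0493.

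In these fibres nearly all beta chain reads were beta 2. Of the summed density of Lamb1 and Lamb2, Lamb2 made up 98.7% to 100% in the 16 libraries, with a mean of 99.6% ± 0.407 (SD, n = 16). Lamb2 lies on chromosome 9 (mm10, 108479736 to 108490530, plus strand) and Lamb1 on chromosome 12 (31265234 to 31329644, plus strand). The share of alpha 2 in the summed density of Lama2 and Lama4 was less even. It was 95.8% ± 2.04 in young controls, 61.3% ± 16.3 in young runners, 63.3% ± 29.2 in old controls and 76.3% ± 16.6 in old runners (SD, n = 4 each). All 4 young controls lay above 94%, from 94.4% to 98.8%, and the other groups ranged from 28.8% to 100%. Lama4 was covered by at most 368 reads in a library, which limits these shares. In young controls Yc4, Yc5, Yc7 and Yc8 it had only 4, 16, 38 and 6 reads. The shares of 100% in O2ex and Oc2 stand for 0 reads of Lama4.

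Running in old mice came with higher values of Dag1, Lamc1 and Itga7, none of which passed the test. Levels here are normalised reads, the counts divided by the size factor the authors gave each library. Dag1 had 12857, 12742, 14017 and 15340 normalised reads in old runners O1ex to O4ex, and 12570, 5878, 8078 and 9860.5 in old controls Oc1 to Oc4. Every runner was above every control, though O2ex exceeded Oc1 by little, and in CPM the groups overlapped, at 257 to 335 in runners and 133 to 285 in controls. Differences are on the log2 scale of the deposited values, in which those of low genes are compressed. That of Dag1 was 0.62 (95% interval 0.18 to 1.06, limma adjusted p = 0.164), with a ratio of mean normalised reads of 1.51. Without Oc2 it was 0.44 (limma adjusted p = 0.286).

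Lamc1, the gamma 1 chain shared by most laminins, had 1077, 1137, 1751 and 919 normalised reads in old runners and 793, 109, 614 and 695 in old controls. The groups did not overlap, and Oc2 was far below the other controls. The difference was 0.90 (95% interval 0.22 to 1.57, limma adjusted p = 0.183). Without Oc2 it was 0.56 (limma adjusted p = 0.252). Itga7 had 5139, 6309, 6433 and 7021 normalised reads in old runners and 7033, 3482, 4337 and 3244 in old controls. Control Oc1 was above all runners and the other controls below them all. The difference was 0.48 (95% interval 0.01 to 0.95, limma adjusted p = 0.275), and 0.39 without Oc2 (limma adjusted p = 0.471).

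Of the 6 members tested in old runners against old controls, none passed an adjusted p of 0.05, where 0.128% of the 9379 genes did (12 genes). At an unadjusted p under 0.05 there were 3 members, where 17.4% of all genes were past it. Dag1 and Lamc1 were 2 members with all runners above all controls, where 4.86% of genes tested had such groups. The median difference of the 6 members was 0.47, beside 0.03 for all genes tested. Lamb2 differed by 0.45 (limma adjusted p = 0.510), and by 0.10 without Oc2. Hspg2 differed by 0.06 and Lama2 by -0.19 (limma adjusted p = 0.924 and 0.808), and their groups overlapped widely. Without Oc2 they differed by -0.03 and -0.27. Lama2 had 1.04, 4.11, 11.4 and 3.09 CPM in O1ex to O4ex, and 15.6, 3.72, 4.01 and 3.26 in Oc1 to Oc4. Library Oc1 carried much weight: without it, Dag1 (0.79, limma adjusted p = 0.0421) and Itga7 (0.70, limma adjusted p = 0.0387) passed, and 295 genes passed in all.

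In young mice the same receptors were higher in runners, again without passing the test. Dag1 had 14632, 22332, 16483 and 20382 normalised reads in young runners Y1ex to Y4ex, and 5162, 12852, 14139 and 11240 in young controls Yc4, Yc5, Yc7 and Yc8. All runners were above all controls, with Yc4 far below the rest. In CPM the groups overlapped, at 311 to 459 in runners and 110 to 316 in controls. The difference was 0.83 (95% interval 0.19 to 1.47, limma adjusted p = 0.191), with a ratio of means of 1.70. Without Yc4 it was 0.51 (limma adjusted p = 0.162).

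Itga7 had 7551, 7251, 7777 and 8870 normalised reads in young runners and 3684, 5964, 7057 and 6044 in young controls. All runners were above all controls, but in CPM control Yc7, at 158, was above runners Y2ex and Y3ex, at 149 each. The difference was 0.49 (95% interval 0.05 to 0.92, limma adjusted p = 0.234), and 0.30 without Yc4. The chains moved less evenly. Lamb2 had 7273, 9230, 4803 and 8089 normalised reads in young runners and 2075, 6912, 5146 and 5636 in young controls. Runner Y3ex lay below all controls but Yc4. The difference was 0.63 (limma adjusted p = 0.355), and 0.28 without Yc4.

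Lamc1 had 2809, 1706, 1254 and 1896 normalised reads in young runners and 135, 2525, 1521 and 1351 in young controls, so that Yc4 alone was far from the rest. The difference of 0.74 (limma adjusted p = 0.513) was 0.08 without Yc4. Hspg2, the long heparan sulfate proteoglycan perlecan, differed by 0.24 and Lama2 by 0.04 (limma adjusted p = 0.766 and 0.964). Without Yc4, Hspg2 differed by -0.013 and Lama2 by -0.33. Of the 7 members tested in young mice none passed, where 0.762% of 10624 genes did (81 genes). At an unadjusted p under 0.05 there were 2 members, where 17.4% of all genes were past it. Dag1 and Itga7 were the 2 tested members with all runners above all controls, where 5.71% of genes had such groups. The median difference of the 7 was 0.63, beside 0.01 for all genes. Without runner Y2ex, 0 genes passed in the whole comparison, and without Yc4, 181 did.

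**Figure D2:**
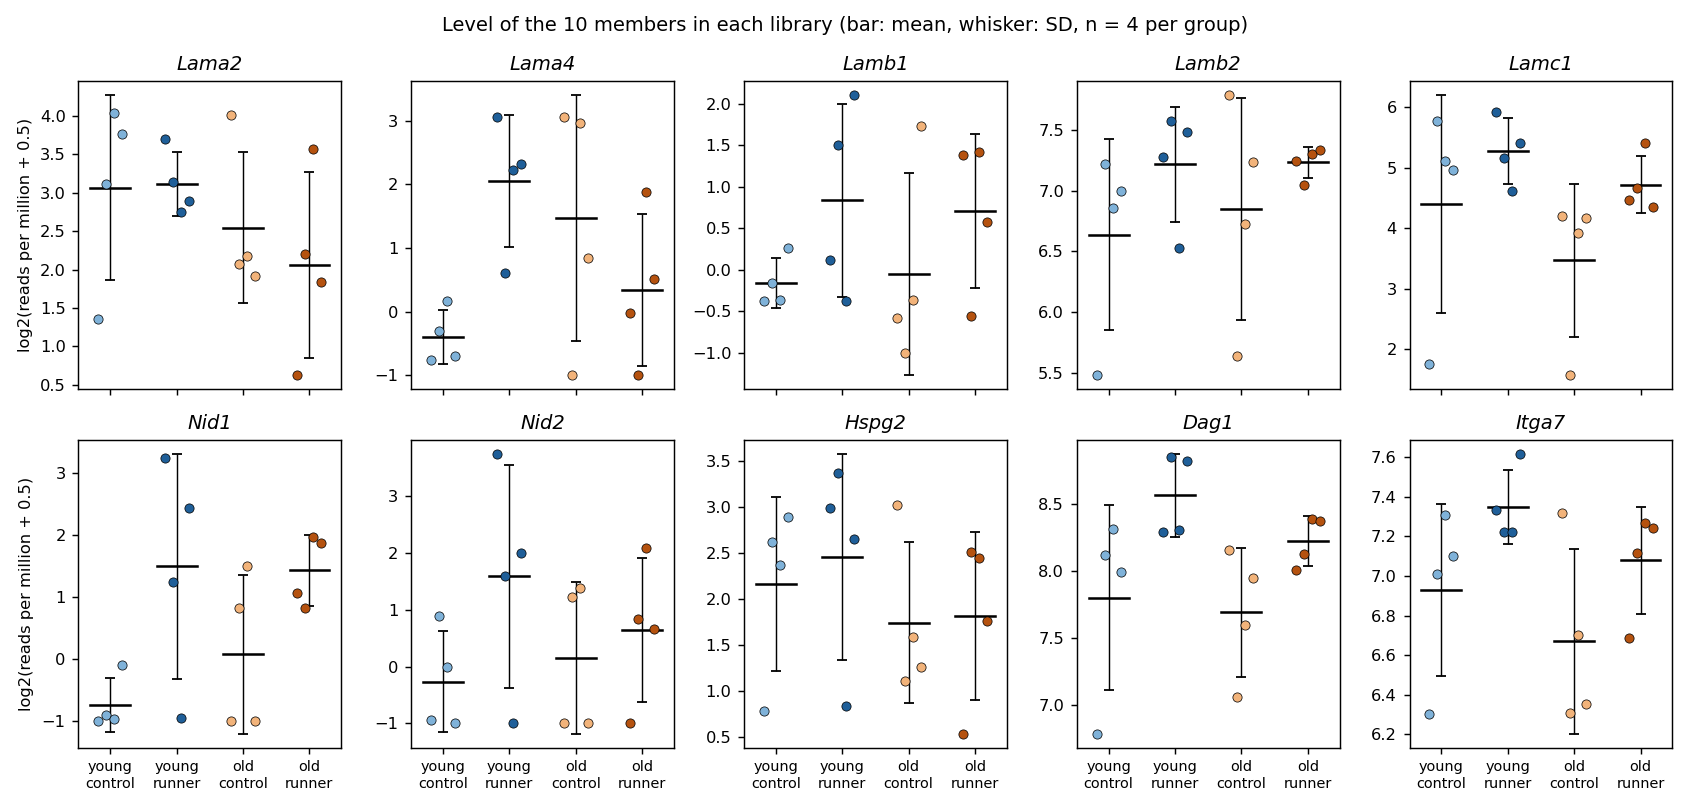
Level of each member, as log2 of CPM plus 0.5, in the 4 libraries of each group, with the mean and SD (n = 4). Dag1 lies between 311 and 459 CPM in young runners and between 110 and 316 in young controls. In Lamc1, Lamb2 and Dag1 the lowest young control and the lowest old control lie below all other libraries, and far below them in Lamc1.

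The 4 low members Lama4, Lamb1, Nid1 and Nid2, mostly lay too near the floor to be tested. Lama4 had 7.81, 1.02, 4.2 and 4.48 CPM in young runners Y1ex to Y4ex, and 0.0903, 0.313, 0.621 and 0.114 in young controls. All runners were above all controls, and the ratio of mean normalised reads was 16.3. In this comparison only 3 libraries were at least 1 log2 unit above the floor, so Lama4 missed the filter. Fitted with no filter, its difference was 1.32 (limma adjusted p = 0.120). In old mice Lama4 had 0.489, 0, 3.17 and 0.921 CPM in runners and 7.80, 0, 7.33 and 1.30 in controls, so the groups overlapped. With no filter the old difference was -0.47 (limma adjusted p = 0.719), of the opposite sign.

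Nid1, nidogen 1, had 8.87, 1.86, 0.0224 and 4.91 CPM in young runners, where the value of Y3ex is 1 read. Its young controls had 0, 0.0391, 0.0163 and 0.436. In old mice it had 1.60, 1.28, 3.42 and 3.15 in runners and 0, 1.28, 2.32 and 0 in controls, so the old groups overlapped only through Oc2 and Oc3. With no filter the difference was 1.25 in young mice (limma adjusted p = 0.291) and 0.57 in old mice (limma adjusted p = 0.399). Nid2, nidogen 2, had 12.9, 2.50, 0 and 3.50 CPM in young runners and 0.0226, 1.35, 0.490 and 0 in young controls. It was tested in young mice, where the difference was 1.05 (95% interval -0.11 to 2.21, limma adjusted p = 0.333), and 0.94 without Yc4. It entered that test through 3 runners and 1 control. With no filter its old difference was 0.22 (limma adjusted p = 0.772). Lamb1 differed by 0.31 in old and 0.52 in young mice with no filter (limma adjusted p = 0.689 and 0.501). Lamb1 reached at most 3.80 CPM, in Y4ex, and was at 0 in Oc2.

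Averaged over both ages, Dag1 rose with running. This comparison was added after both running results had been seen, and takes the mean of the old and the young difference over all 16 libraries. The difference of Dag1 was 0.72 (SE 0.188, 95% interval 0.33 to 1.12, limma adjusted p = 0.0252). It was the only 1 of 6 members to pass, where 9.92% of 9354 genes passed, 5.07% as higher. Itga7 differed by 0.48 (95% interval 0.17 to 0.80) and missed the threshold (limma adjusted p = 0.0506). Lamc1 differed by 0.82 and Lamb2 by 0.54 (limma adjusted p = 0.137 and 0.172). With Oc2 and Yc4 left out they differed by 0.32 and 0.19 (limma adjusted p = 0.271 and 0.504), and without Yc4 alone Lamc1 differed by 0.49. Hspg2 differed by 0.15 and Lama2 by -0.07 (limma adjusted p = 0.705 and 0.884), and by -0.021 and -0.30 with both libraries left out. With no filter, Nid1 differed by 0.91, Nid2 by 0.63, Lama4 by 0.43 and Lamb1 by 0.41, with limma adjusted p-values of 0.0656, 0.294, 0.374 and 0.222. For such low genes the average mixes unlike scales, since the floor was 7.69 for the old and 6.73 for the young values.

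The call of Dag1 rests in part on single libraries. It passed with both Oc2 and Yc4 left out, where the difference was 0.48 (limma adjusted p = 0.0294). It was lost, with limma adjusted p-values of 0.0558, 0.0514 and 0.0604, without O4ex, Oc2 or Y2ex, where the difference was 0.70, 0.63 and 0.68. With both Oc2 and Yc4 left out, Itga7 differed by 0.34 (limma adjusted p = 0.135). With the trend on exon length removed from every library, Dag1 differed by 0.63 (limma adjusted p = 0.0186) and Itga7 by 0.37 (limma adjusted p = 0.0615).

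The running differences were not shown to depend on age. In the interaction of running and age 0 of 9354 genes passed limma's test, and 585 were at an unadjusted p under 0.05 (6.25%), with limma voom on the recovered reads also passing 0. None of the 6 members tested was among the 585. The old minus young difference was -0.21 for Dag1 (95% interval -1.0 to 0.58), -0.01 for Itga7 (-0.64 to 0.63), 0.16 for Lamc1 (-1.31 to 1.63) and -0.18 for Lamb2 (-1.26 to 0.90). It was -0.23 for Lama2 and -0.18 for Hspg2. All 6 had a limma adjusted p of at least 0.959. With Oc2 and Yc4 left out, that of Lamc1 was 0.48 (limma adjusted p = 0.711). With no filter, Lama4 had -1.79, Nid2 -0.83, Nid1 -0.68 and Lamb1 -0.20, with limma adjusted p-values from 0.479 to 0.957. The floor of the deposited values was 7.69 for the old and 6.73 for the young running comparison. Low genes are therefore compressed more in the old values, and these differences of low genes between ages mix unlike scales. The intervals of the 6 tested members leave room for differences as large as the running differences themselves.

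**Figure D3:**
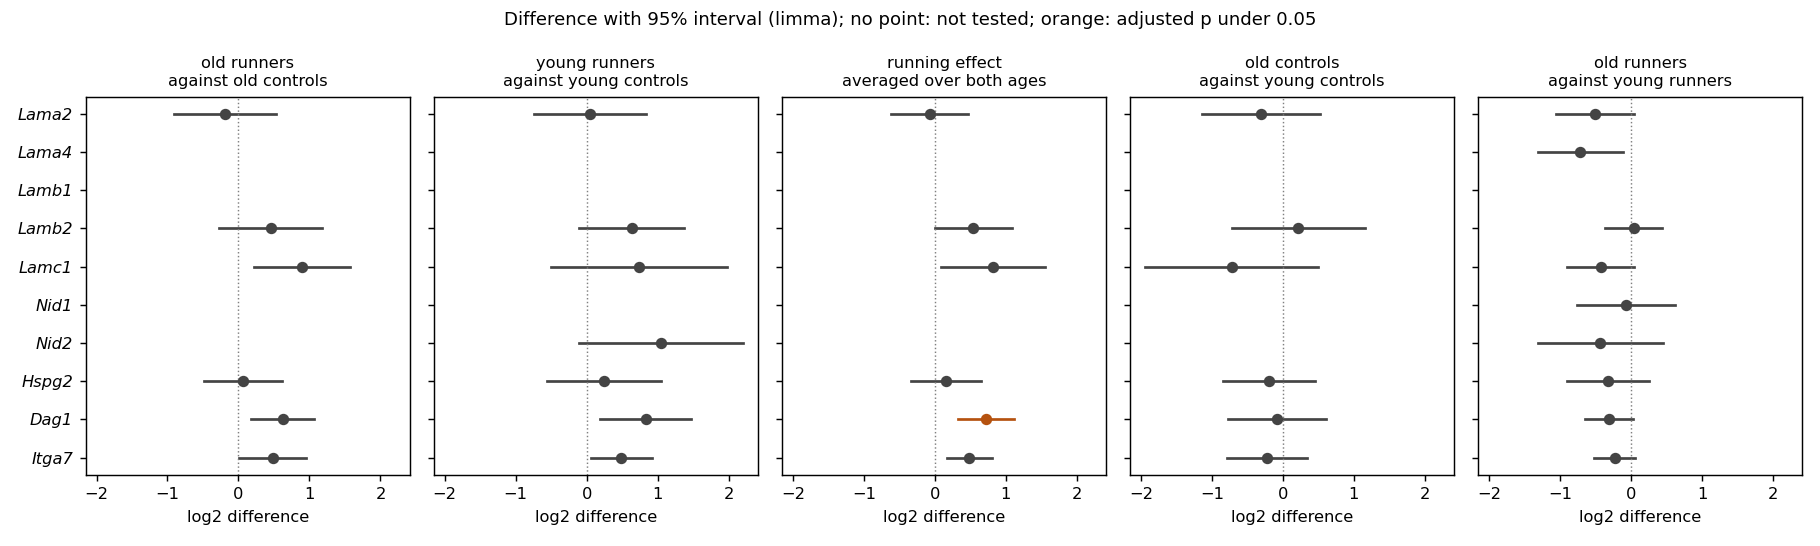
Log2 difference of each member with its 95% interval (limma) in 5 comparisons, with no point where a member was not tested. In the running effect averaged over both ages the interval of Dag1, 0.33 to 1.12, is coloured as the only adjusted p under 0.05, and in both age comparisons no member is.

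With age, no member passed in controls or in runners. Old and young controls enter the running comparisons too, so the values share libraries with those above. In old against young controls, 0 of 6 members passed, where 0.112% of 9831 genes did, and none was at an unadjusted p under 0.05, where 11.2% of all genes were. Lamc1 was furthest from 0, at -0.72 (95% interval -1.95 to 0.50, limma adjusted p = 0.663). It was -0.36 without Oc2 and -1.31 without Yc4 (limma adjusted p = 0.886 and 0.140). Dag1 differed by -0.09 (95% interval -0.78 to 0.60), Itga7 by -0.22 (-0.79 to 0.34) and Lamb2 by 0.22 (-0.72 to 1.16). Lama2 differed by -0.31 and Hspg2 by -0.20. The median of the 6 was -0.21, beside -0.01 for all genes. With no filter, Lama4 differed by 0.79, Nid1 by 0.31, Nid2 by 0.15 and Lamb1 by 0.00893, with limma adjusted p-values from 0.605 to 0.988.

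In old against young runners, 9 of 10 members were tested, all but Lamb1, and 0 passed, where 0.0213% of 9387 genes did. At an unadjusted p under 0.05 there was 1 member, Lama4, where 4.91% of all genes were past it. Lama4 differed by -0.72 (95% interval -1.31 to -0.12, limma adjusted p = 0.982), with 24.3, 0, 131 and 42.5 normalised reads in O1ex to O4ex and 339, 46.7, 204 and 188 in Y1ex to Y4ex. Old runner O3ex lay within the young range and the other 3 below it. Lama2 differed by -0.50 (95% interval -1.05 to 0.04) and Lamc1 by -0.43 (-0.90 to 0.04). Dag1 differed by -0.31 (-0.64 to 0.03) and Itga7 by -0.23 (-0.52 to 0.05). Lamb2 differed by 0.04 (-0.37 to 0.44). Nid1 differed by -0.07, Nid2 by -0.43 and Hspg2 by -0.32. Lamb1 differed by -0.05 with no filter (limma adjusted p = 0.992). Of the 9, 1 lay above 0, where 51.3% of all genes did, and their median was -0.32, beside 0.00489 for all genes.

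Among the other genes of the basement membrane, collagen IV alpha 1 and Sparc rose with running in young mice. Of 20 listed components other than the members, 11 were tested, 2 passed as higher and 0 as lower, where 0.762% of all genes passed. Col4a1, a chain of the collagen IV network to which nidogen and perlecan link laminin, had 2954, 1100, 684 and 1394 normalised reads in young runners and 25.4, 94.5, 199 and 322 in young controls. The lowest runner, at 684, was above the highest control, at 322, and the difference was 2.34 (limma adjusted p = 0.0412). Sparc, a collagen-binding matrix protein, had 2728, 1355, 2009 and 1979 normalised reads in runners and 646, 572, 779 and 964 in controls. The groups did not overlap, and the difference was 1.23 (limma adjusted p = 0.0427). The median of the 11 was 0.96, beside 0.01 for all genes tested. Both calls were lost without Y2ex, since no gene passed then. Without Y4ex only 1 gene passed, and without Yc7 also 1, so at least 1 of the 2 calls was lost in each. In old runners against old controls 7 of the 20 were tested and 0 passed, with the smallest p for Col4a1 (0.76, limma adjusted p = 0.228). Averaged over both ages, Col4a1 (1.55), Sparc (0.70) and Fbln2 (1.06), a fibulin of elastic and basement membrane matrix, passed of 7 tested, with limma adjusted p-values of 0.00387, 0.00961 and 0.0303, where 5.07% of all genes passed as higher. Whether Fbln2 entered through the runners alone was not checked.

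In young mice the summed markers of 3 other cell types were higher in all runners than in all controls, though none passed after adjustment. The summed level of 10 markers of fibro-adipogenic progenitors, the main matrix-making interstitial cells of muscle, was 1.33 to 15.9 CPM in young controls, 79.9 to 268 in young runners, 5.09 to 44.4 in old controls and 40.7 to 87.8 in old runners. All 10 had reads in both young groups, while Pdgfra was at 0 in all old libraries. Of the 6 markers that entered the test in young mice, Dcn differed by 3.25 and Gsn by 3.39 on the log2 scale (limma adjusted p = 0.0190 each). Across all genes 0.762% passed there. For Dcn 2 and for Gsn 3 of the 4 young controls were at least 1 above the floor. Neither call held without Y2ex, where 0 genes passed. Without Y4ex only 1 gene passed, and without Yc7 also 1, so at least 1 of these 2 calls was lost in each. Col1a2 differed by 2.18, but entered only through the 4 runners, the group where it was high, so no test is given for it. Gsn, gelsolin, severs actin filaments and is made by many cell types. The sum of 11 endothelial markers was 7.92 to 26.3 in young controls, 31.7 to 141 in young runners, 13.7 to 130 in old controls and 27.7 to 112 in old runners. Of 9 endothelial markers tested in young mice 0 passed. The sum of 8 Schwann cell markers was 3.46 to 6.07 in young controls, 7.39 to 11.4 in young runners, 10.2 to 18.7 in old controls and 8.13 to 15.1 in old runners. Gjc3 was at 0 in both young groups, and Sox10, S100b and Cdh19 in young controls. In old mice Gjc3 and Cdh19 were at 0 in controls and Sox10 in runners. Each of these 3 sums was higher in all young runners than in all young controls, with an exact permutation p of 0.0286, the smallest that 70 assignments can give (2-sided, 0.0857 adjusted over 9 cell types). In old mice the exact permutation p for runners against controls was 0.0571 for the progenitor sum (adjusted 0.386), 0.743 for the endothelial and 0.257 for the Schwann cell sum. In such bulk samples more cells of a type and more RNA per cell cannot be told apart. The part of these cells in the differences of Lama4, Nid1, Nid2, Col4a1 and Sparc was not tested.

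For the other 6 sums no exact permutation p was under 0.05 in either running comparison, even before adjustment. For fibre markers the exact permutation p was 0.0857 in old and 0.6 in young mice, with sums of 127680 to 152430 in young controls and 128670 to 170990 in young runners. For pericyte and smooth muscle markers it was 0.229 and 0.114 (33.8 to 317 CPM over all libraries, Myh11 at 0 in old controls). For satellite cells it was 0.257 and 0.2 (44.0 to 167, Pax7, Calcr and Chodl at 0 in old controls). For tendon it was 0.83 and 0.314 (20.8 to 69.7, Tnmd at 0 in both control groups), for macrophages 0.857 and 0.83 (8.65 to 57.4, Ptprc at 0 in both young groups, Csf1r and C1qa in both old groups, Adgre1 not analysed here) and for red cells 0.714 and 0.143 (0.293 to 21). In both age comparisons no sum passed after adjustment. The Schwann cell sum was higher in all old than in all young controls and the satellite cell sum lower in all old than in all young runners (exact permutation p = 0.0286, adjusted 0.257, each). Of the single markers in these 6 lists 0 passed in either running comparison, with the smallest p in young mice for Myh1 (1.57), Rgs5 (2.34), Myf5 (-0.64), Thbs4 (0.28), Mrc1 (-1.22) and Hbb-bs (0.91), and in old mice for Myh1 (1.29), Abcc9 (0.97), Sdc4 (0.50), Fmod (1.03), Cd68 (0.037) and Hba-a1 (0.20). Averaged over both ages, where Dag1 passed and 5.07% of all genes passed as higher, the progenitor markers Dcn (2.27), Gsn (2.41) and Col3a1 (1.46) rose, the 3 of 10 that were tested, as did the endothelial Flt1 (0.96), 1 of 8, the pericyte gene Rgs5 (1.5), 1 of 2, and the fast myosins Myh1 (1.43) and Myh4 (0.80), 2 of 8 fibre markers. Whether Dcn, Gsn, Col3a1, Flt1 and Rgs5 entered the averaged fit in old mice through the runners alone was not checked. For Col3a1, Flt1 and Rgs5 it was not checked in young mice either. The macrophage gene Mrc1 differed by -1.56 in old against young controls, but entered only through the 4 young controls, so no test is given for it.

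The partners of the laminin receptors gave few calls. Of 9 listed genes, other laminin receptors and some genes of the neuromuscular junction, 8 were tested in each running comparison and 0 passed. The smallest p in old mice was that of Musk, the kinase of that junction and not a laminin receptor (0.95, limma adjusted p = 0.0777). In young mice it was that of Itgb1, the beta 1 partner of Itga7 (0.55, limma adjusted p = 0.227). Averaged over both ages both rose, Musk by 0.80 and Itgb1 by 0.47 (limma adjusted p = 0.0144 and 0.0400), 2 of 8 tested, where 9.92% of all genes passed. Of 15 genes of the dystrophin-associated complex 0 of 11 passed in old and 0 of 14 in young mice. Their smallest p was that of Plec, the linker plectin, at 1.01 in old and 0.70 in young mice (limma adjusted p = 0.0556 and 0.254). Averaged, Plec rose by 0.85 (limma adjusted p = 0.00961), 1 of 11 tested, a share near the 9.92% of all genes that passed. The median of the complex was 0.11 in old and -0.03 in young mice, beside 0.03 and 0.01 for all genes.

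Of 17 enzymes of the sugar chain through which dystroglycan binds laminin, 0 of 16 passed in old and 0 of 17 in young mice. The smallest p was that of Pomt2 in old (0.41, limma adjusted p = 0.280) and of Dpm1 in young mice (-0.90, limma adjusted p = 0.0921). Averaged over both ages, 2 of 16 passed and both fell: Dpm1 fell by 0.46 and Dpm2 by 0.46 on the log2 scale (limma adjusted p = 0.0417 and 0.0363). This count is near the 9.92% of all genes that passed. Both belong to the enzyme that makes dolichol phosphate mannose, the mannose donor. The glycosylation list had a median of 0.03 there, beside 0.04 for all genes.

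Of 14 matrix proteases and inhibitors, 10 entered the test in young mice. Mmp14, a membrane-bound protease, had 89.1, 94.1, 117 and 66.9 normalised reads in young runners and was at 0 in all young controls. Mmp2, the gelatinase that Mmp14 activates, had 501, 423, 136 and 137 in runners and 1.06, 0, 0 and 45.3 in controls. The groups of both genes did not overlap, but no control was at least 1 above the floor: they entered only through the 4 runners, the group where they were high, so no test is given for them. In old mice 0 of 7 passed, with the smallest p for Adamts4 (1.19, limma adjusted p = 0.152), and averaged 0 of 7 passed (Timp2, 0.42, limma adjusted p = 0.0646). Both proteases are made by many interstitial cells, and the part of the cells whose markers are given above was not tested.

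Of 13 linkers of integrins to actin, 11 were tested at each age and 0 passed, with the smallest p for Pxn in old (0.76, limma adjusted p = 0.113) and Tln1 in young mice (0.39, limma adjusted p = 0.241). Averaged, Tln2 had the smallest p (0.58, limma adjusted p = 0.0639). Of 10 genes of folding and secretion of matrix proteins, 0 of 9 passed in old and 0 of 10 in young mice. In young mice all 10 lay above 0 with a median of 0.56, beside 51.5% above 0 and a median of 0.01 for all genes. Averaged, 2 of 9 rose, where 5.07% of all genes passed as higher: Hsp90b1, a chaperone of the endoplasmic reticulum, by 0.49 and Sec23a, a coat protein of its transport vesicles, by 0.40 (limma adjusted p = 0.0119 and 0.0219). Of the 6 other laminin chains 2 were tested in old and 3 in young mice and 0 passed, with the smallest p in young mice for Lama5 (-0.87, limma adjusted p = 0.318). With age, 0 genes of these 8 lists passed in controls or runners. In old against young controls the smallest p in each list was that of Lama5 (-0.70), Sparc (0.92), Sdc4 (-0.55), Cav3 (-0.53), Dpm1 (-0.63), Adamts4 (-1.35), Flnc (-1.17) and Hspa5 (0.61), with limma adjusted p-values from 0.139 to 0.559. In old against young runners, for the lists other than the laminin chains, it was that of Ntn4 (-0.59), Sdc4 (-0.36), Dtna (0.36), Ispd (0.36), Mmp2 (-0.71), Tln2 (-0.63) and Plod1 (-0.27), from 0.386 to 0.988. In the interaction of running and age 0 passed, and the smallest p was that of Lama5 (0.92), Sparc (-1.06), Lrp4 (0.50), Dtna (0.40), Dpm1 (0.88), Adamts4 (1.01), Ptk2 (0.47) and Hspa5 (-0.77), from 0.615 to 0.880. The young and the old change of Sparc were not shown to differ.

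The 6 well-covered members moved together between libraries of a group. The Pearson correlation of their deviations from the group means (log2 of CPM plus 0.5, 16 libraries) ranged from 0.569, between Lama2 and Lamb2, to 0.901, between Lamb2 and Dag1. Lamc1 and Lamb2, chains of 1 trimer, had 0.875, and Dag1 and Itga7 had 0.781. These points share library and depth, and the values are descriptions. Yc4 and Oc2, the libraries lowest for the members, are among the points. Correlations as high were not particular to the members, since Atp6v0a2, outside them, had 0.970 with Lamb2 within groups. The ratio of Dag1 to Itga7 density was 2.71 ± 0.565 (SD, n = 16), and Lamb2 per Lamc1 had a median of 7.28, with a range of 3.52 to 27.3.

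The 2 libraries lowest for the members were also the 2 lowest for other long genes, while old controls Oc3 and Oc4 were low for the members and not for the long genes to the same degree. The mean deviation of the 6 members from their means over the 16 libraries was -1.47 in Yc4, -1.25 in Oc2, -0.62 in O1ex, -0.43 in Oc3, -0.40 in Oc4 and -0.17 in Y3ex (log2). The median deviation of 2944 genes with at least 6000 exon bases was -0.33 in Yc4, -0.31 in Oc2, -0.27 in O1ex and -0.27 in Y3ex, and between -0.08 and 0.28 in the other 12. Oc3 and Oc4, with 6 and 5 of the 6 members below their mean, were at -0.08 and 0.12 for the long genes. All 6 members exceed that length, from 6082 bases in Lamb2 to 16338 in Lama2. Old control Oc1, highest of its group for 6 of 6 members, was at 0.54 for the members and 0.05 for the long genes. The part of exon length in the members' differences beyond the fit with the length trend removed was not tested.

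**Figure D4:**
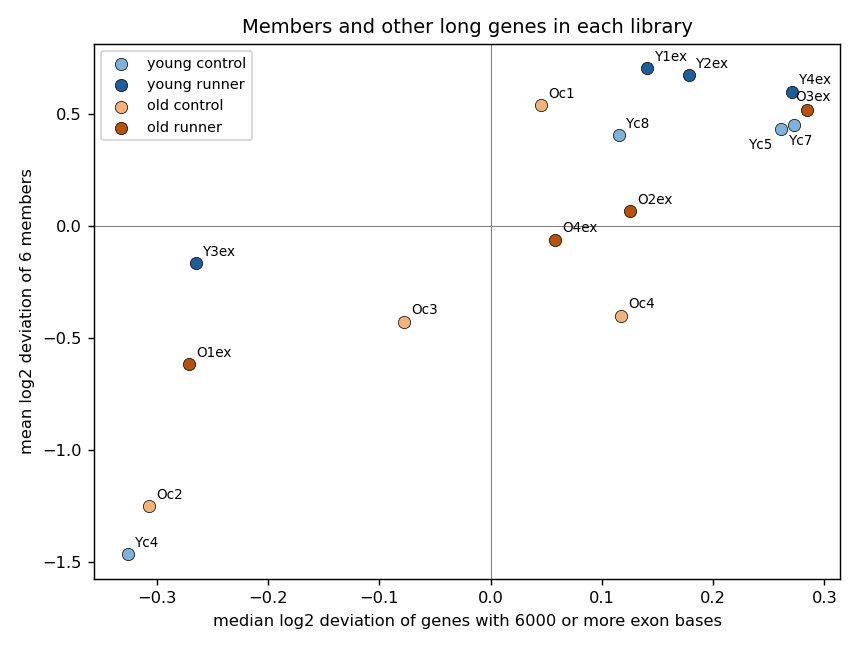
Each point is 1 library: the median log2 deviation of 2944 genes with 6000 or more exon bases on the x axis, and the mean log2 deviation of the 6 members from their means over 16 libraries on the y axis. Yc4 and Oc2 lie lowest on both axes, at -1.47 and -1.25 for the members.

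Outside the members, the genes whose level followed a member most closely over the 16 libraries were found among 8703 genes (Pearson r of log2 of CPM plus 0.5, predicted genes left out, no test). For Dag1 they were Cluh (r = 0.954), Gtf3c1 (0.952) and AI464131 (0.948). For Lamb2 they were Atp6v0a2 (0.959), Celf1 (0.955) and Cand2 (0.944), and for Lamc1 Pi4ka (0.956), Slc41a1 (0.948) and Hipk1 (0.935). For Itga7 they were the muscle sodium channel Scn4a (0.947), Gpam (0.946) and Phka1 (0.944), a subunit of muscle phosphorylase kinase. For Lama2 they were Tnrc6b (0.915), Sec24c (0.869) and Sox6 (0.863), and for Hspg2 Zfp654 (0.904), Abcc5 (0.900) and Naca (0.893). Within groups these r values were between 0.883 and 0.970. The libraries share depth and preparation, and these neighbours were picked as the highest of many.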

How the data were processed

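RNA (10 ng per library) was amplified with SMART-Seq v4 and made into libraries with an Ovation Ultralow kit, per the labels' protocols. These kits do not mark the strand. Per the submitters' processing notes the authors used Trim Galore, STAR, featureCounts of Subread and DESeq2 on mm10. Tool versions and the annotation were not given in the sources used here. Values deposited by the authors are log2, variance-stabilised after division of counts by size factors, in 4 separate tables of 1 pair of groups each. Genes with 0 reads share a floor, near which differences are compressed. The transformation was inverted here. Whole reads came out for 100% of values within 0.02 (largest distance 0.0101), and no gene differed between the 2 tables of a library. Reads have no molecular identifiers, so depth covers counting error only. Gene positions and exon lengths came from GENCODE M21 (22254 symbols matched, 95.84%).

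Each table was fitted with limma 3.58.1 in R 4.3.3 (lmFit, eBayes with trend, 2-sided) on genes that exceeded the floor by 1 or more in 4 or more libraries, with Benjamini-Hochberg adjustment over all genes tested and a threshold of 0.05. The tables held 21 symbols turned into dates, which were tested without being named. Columns of runners were assigned by sample title, except O4ex and Y4ex, which like all control columns were matched to their group. No column was left unused (0). The interaction and the averaged effect took both running tables in 1 fit with a mean for each of the 4 groups. There was no separate term for the table, which is the same split as age. Cell type sums were compared by exact permutation over 70 assignments. Scripts were tested on simulated data.

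All 10 members are given in each comparison, those that missed the filter from the fit with no filter. Of each list, genes past the threshold are named (at most 3), or the 1 with the smallest p, and for the 6 members that passed the filter in all tables the 3 genes most like each. In the averaged effect the same rule was used. Entry of a gene through 1 group alone was checked for members and for list genes past the threshold in a pair of groups. It was not checked for list genes past it only in the averaged effect. Some genes that the rule names are not reported here. The members and lists were chosen with earlier results of these data known. Alternatives were no filter or a filter of 2, median centring, quantile normalisation, eBayes without trend or robust, library weights, limma voom on recovered reads (trimmed-mean scaling), removal of an exon length trend (lowess span 0.3), a replicate block, and each library left out. The averaged effect and leaving out Oc2 and Yc4 together were added after seeing the data. Replicate numbers were checked and do not pair the samples.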

Additional observations from a re-analysis of the deposited data

Results flagged for a closer look

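Among 40 groups of 4 libraries (10 members in 4 groups), 3 had a library far from the others by Dixon's criterion, which compares the gap to the next library with the range of the group. For independent, normally distributed values chance gives such a library in about 1 in 20 groups. That rate need not hold here, since the CPM of some members lie near 0 and the 10 members share the same libraries. Lama2 in old controls was 15.6 CPM (reads per 1e6 reads) in Oc1, the highest, with a gap of 0.875 of the range. Lamc1 in old controls was 2.46 CPM in Oc2, the lowest, with a gap of 0.893. Nid1 in young controls was 0.436 CPM in Yc8, the highest, with a gap of 0.880. The cause of each was not tested.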

How the results depend on the processing

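The number of genes past the threshold moved with the settings more than the members did. In old runners against old controls, 12 genes passed, and 7 with no filter, 27 with a filter of 2 above the floor, 23 with median centring, 24 with quantile normalisation, 4 without the eBayes trend, 688 with library weights, 3 with voom and 5 with the length trend removed. Leaving out 1 library gave 1 to 295 genes and 0 to 2 members. Library weights gave 2 members, Dag1 (0.73) and Itga7 (0.60), and turned Lama2 to 0.019, and Hspg2 was -0.12 with the length trend removed. With 1 library out, Lama2 ranged from -0.43 to 0.10 and Hspg2 from -0.042 to 0.27. In young runners against young controls, 81 genes passed, and 24 with no filter, 143 with median centring, 228 with quantile normalisation, 47 without the trend, 1394 with library weights, 13 with voom, 155 with the length trend removed and 0 to 181 with 1 library out. Weights gave 2 members, Dag1 (0.68) and Nid2 (1.17), and Lama2 at -0.38. With 1 library out, Lama2 ranged from -0.33 to 0.27 and Hspg2 from -0.013 to 0.56.

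In old against young controls, 11 genes passed, and 3 with no filter, 28 with quantile normalisation, 461 with weights, 7 with voom, 24 with the length trend removed, 37 with Oc2 and Yc4 out and 3 to 52 with 1 library out. Lamb2 was -0.11 with weights and ranged from -0.12 to 0.57 with 1 library out, Dag1 from -0.40 to 0.10 (0.0951), and Hspg2 was 0.013 with the length trend removed. In old against young runners, 2 genes passed, 7 with weights and 0 to 3 with 1 library out. Lamb2 was -0.13 with weights and -0.14 to 0.16 with 1 library out, and Nid1 was 0.67 with voom and -0.39 to 0.013. The interaction gave 0 genes, 27 with weights, 5 with Oc2 and Yc4 out and 0 to 5 with 1 library out. There Lama2 was 0.43, Dag1 0.060 and Itga7 0.27 with weights, Hspg2 0.17 and Itga7 0.056 with voom, and Lama2 0.056 and Itga7 0.088 with Oc2 and Yc4 out. With 1 library out the interaction ranged from -0.39 to 0.11 for Dag1, -0.50 to 0.073 for Hspg2, -0.13 to 0.21 for Itga7, -0.47 to 0.14 for Lama2, -0.53 to 0.17 for Lamb2 and -0.23 to 0.82 for Lamc1. The averaged effect gave 928 genes, 2543 with weights, 600 with Oc2 and Yc4 out and 368 to 1281 with 1 library out. It gave 1 member, 2 with a filter of 2 or with median centring, 3 with weights and 0 to 2 with 1 library out. Itga7 then passed at 0.48 and 0.45, and Lamb2 (0.58) and Itga7 (0.47) with weights. Hspg2 was -0.021 with Oc2 and Yc4 out, and Lama2 ranged from -0.26 to 0.072 with 1 library out. Over all these alternatives Dag1 stayed above 0 in both running comparisons and in the average (0.44 to 0.99), as did Itga7 (0.30 to 0.70), Lamb2 (0.10 to 0.83) and Lamc1 (0.08 to 1.5). The cause of the changes was not tested.

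With a replicate block by column number, 0 genes passed in old runners against old controls and 0 in old against young runners. The block could be made only there, since the other pairs of groups share fewer than 2 column numbers. The numbers do not pair the samples: deviations of same-numbered libraries correlated by -0.143, -0.127, 0.119 and -0.114 in the first comparison and by -0.240, 0.092, -0.398 and -0.044 in the second. Depth limits Lama4, Lamb1, Nid1 and Nid2 most, with 3 or fewer reads in 2, 1, 6 and 6 of the 16 libraries.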
